A study of Mus musculus with 8 samples.

Results

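The genes described here are 33 genes known from macrophages and other leukocytes that were measured in cultures of mouse embryonic fibroblasts. They form a list of named genes, drawn up with earlier results of these data known. A probe set was taken where the platform annotation named 1 of the 33 genes and no other, and the probe set with the highest mean over the 8 arrays stood for its gene. All 33 were measured, among 18193 genes in all, by 62 probe sets, and 16 of the 33 had several. The study compared mouse embryonic fibroblasts lacking Cebpg, which encodes the leucine zipper transcription factor C/EBP gamma, with wild type cells on Affymetrix arrays. Both groups were C57BL/6 cells, 4 cultures labelled WT and 4 labelled Cebpg-/-, derived from E13.5 embryos; the medium held 10% serum, cells were plated for the experiment at passage 3, the harvest followed after 48 hours, and no other treatment is named. No sorting by cell type is named. The labels call the cultures biological replicates but do not say which embryos or litters they came from, so the p-values measure the spread between these cultures.

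Macrophages arise in the embryo first from the yolk sac and then from the fetal liver, and they settle in nearly every tissue, where they clear dying cells. Their survival depends on the receptor Csf1r and its ligands Csf1 and Il34, and much of their gene expression on the transcription factor PU.1, encoded by Spi1. Fibroblasts secrete Csf1, and cultures made from whole embryo tissue can carry macrophages along.

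Values are log2 expression values, so a difference of 1 is a doubling, and a gene was called changed at an adjusted p under 0.05 (limma, Benjamini-Hochberg over all 18193 genes). RMA compresses the differences of dim probe sets, and levels are not compared between genes. The medians of all probe sets lay between 2.70 and 2.76 on the 8 arrays. As a check of the labels, 1 of the 3 Cebpg probe sets read 58.1% of its WT level in Cebpg-/- (adjusted p over probe sets 0.000593), and the other two, at 88.6% and 119%, did not pass (0.275 and 0.0942). Which of the 3 lie in the deleted part is not given in the labels, so their values are a limited check. The mean of 18 fibroblast genes was 9.68, 9.77, 9.72 and 9.53 on the WT arrays.

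WT replicate 1 and Cebpg-/- replicate 2 were the lowest arrays of their genotype in the mean of the 33 genes. They bear on most of the results that follow. Of this pair, only WT replicate 1 met the outlier criterion given further below (Dixon's), for this mean and for some of the genes. The mean of the 33 genes read 3.79, 5.30, 5.26 and 5.37 on WT replicates 1 to 4 and 7.33, 5.02, 6.73 and 6.39 on Cebpg-/- replicates 1 to 4. WT replicate 1 was thus the lowest array of all, and Cebpg-/- replicate 2 lay below 3 of the 4 WT arrays, while Cebpg-/- replicates 1, 3 and 4 lay above every WT array. Gene by gene, WT replicate 1 was the lowest of the 8 arrays for 30 of the 33, Cebpg-/- replicate 1 the highest for 31, and Cebpg-/- replicate 2 the lowest of its genotype for all 33.

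**Figure D1:**
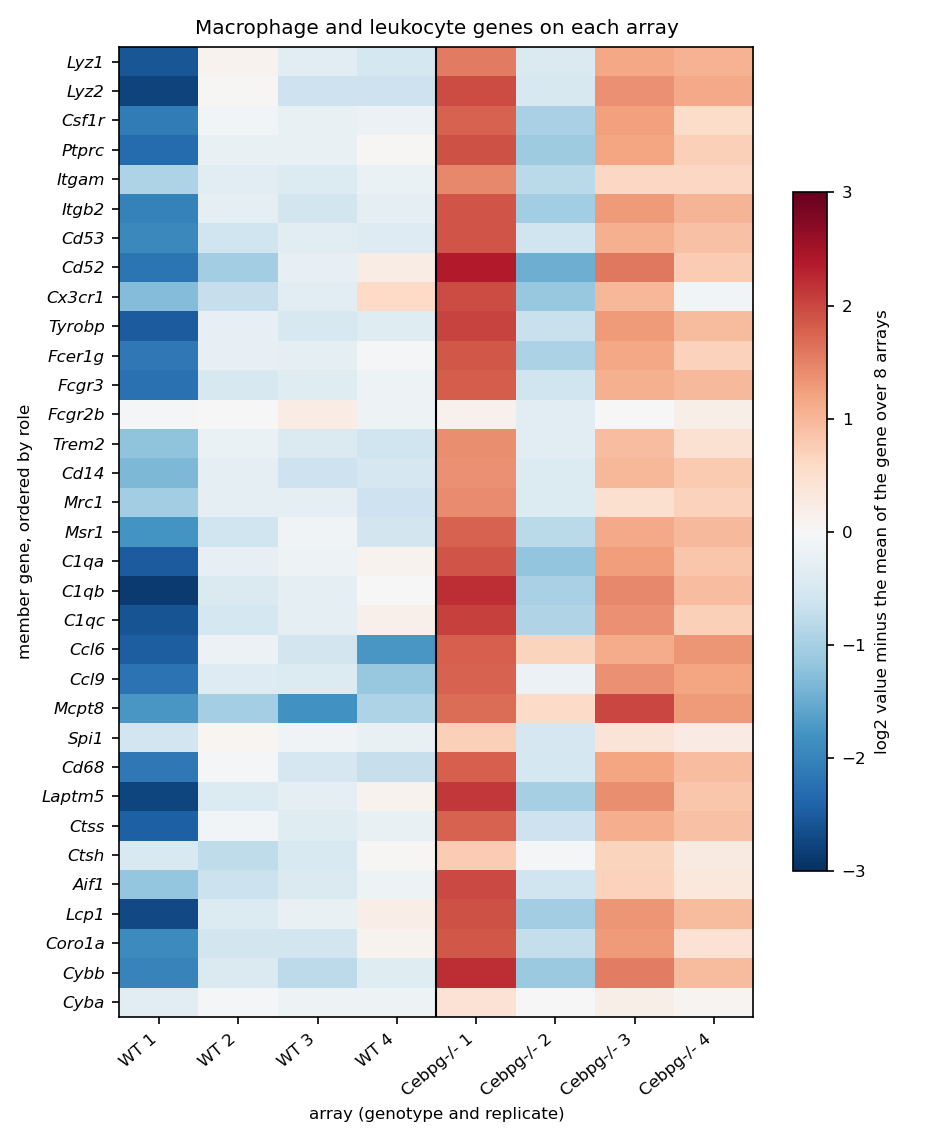
Each row is 1 of the 33 genes and each column 1 array, with the 4 WT arrays left of the line and the 4 Cebpg-/- arrays right of it; colour is the log2 value minus that gene's mean over the 8 arrays. WT replicate 1 is the lowest array for 30 genes and Cebpg-/- replicate 2 the lowest of its genotype for 33, while Mcpt8 and Ccl6 stay red on all Cebpg-/- arrays.

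Across the 4 and 4 arrays, 7 of the 33 genes were called higher in Cebpg-/- and 0 lower: the granule protease gene Mcpt8, the chemokine genes Ccl6 and Ccl9, the receptor genes Cd14 and Trem2, the cathepsin gene Ctsh, and Cyba, a subunit gene of the NADPH oxidase. Of all genes tested, 8.62% were called higher and 3.99% lower, so that 68.4% of all calls were higher; this share was 56.7% after quantile normalization and 78.9% with array medians subtracted. The median change of the 33 was 1.56, beside -0.000922 for all genes, and 32 of the 33 changes were above 0. Changes of at least 2-fold in size were fitted for 27 genes, most of them without a call. For 25 genes the unadjusted p was under 0.05, beside 28.4% of all genes. In 4 genes, Mcpt8, Ccl6, Ccl9 and Cyba, all 4 Cebpg-/- values lay above all 4 WT values, as was so for 12.8% of all genes. In RNA from whole cultures, more cells of a type and more RNA of its genes per cell cannot be told apart.

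Mcpt8 encodes a serine protease of granules, known from basophils. Its log2 values were 3.87, 4.60, 3.79 and 4.69 on the WT arrays and 7.28, 6.18, 7.62 and 6.90 on the Cebpg-/- arrays. The groups did not overlap, and the lowest Cebpg-/- value, on replicate 2, exceeded the highest WT value by over 1 unit. Mcpt8 rose 6.76-fold (log2 change 2.76 ± 0.31 SE, limma adjusted p = 0.000769), the largest change among the 33 genes. The call held with each of the 8 arrays left out, with changes from 2.55 to 3.03.

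Ccl6 and Ccl9 encode CC chemokines of the mouse, both secreted by myeloid cells, and lie on the same chromosome. For Ccl6 the WT arrays read 2.71, 4.998, 4.62 and 3.43 and the Cebpg-/- arrays 6.97, 5.84, 6.29 and 6.497. Every Cebpg-/- value was above every WT value, and WT replicate 1 was the lowest. The gene rose 5.50-fold (log2 change 2.46 ± 0.45 SE, adjusted p = 0.00823) and passed with each array left out. Its second probe set was also called higher. Ccl9 read 3.98, 5.80, 5.78 and 5.05 in WT and 7.96, 6.02, 7.57 and 7.37 in Cebpg-/-, again without overlap, although Cebpg-/- replicate 2 exceeded WT replicate 2 by only a little. Ccl9 rose 4.22-fold (log2 change 2.08 ± 0.47 SE, adjusted p = 0.0190). The Ccl9 call was lost without Cebpg-/- replicate 1, 3 or 4, with adjusted p between 0.0517 and 0.0583, and with an intensity trend (0.0700).

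The start regions of these 3 genes, and of the receptor genes Trem2 and Itgam for comparison, are shown because the 3 moved most while the windows differ in the motifs that myeloid factors bind. Each is the RefSeq window from 250 bases before to 50 bases after the start, in build GRCm38.p6, written 5′ to 3′ on the gene's strand. Capitals mark matches on either strand to GAGGAA (the core bound by PU.1), TTGCNNAA (bound by C/EBP proteins) or TGANTCA (bound by AP-1). The windows are Mcpt8 at chr14:56085148-56085447 (minus strand), Ccl6 at chr11:83593038-83593337 (minus strand), Ccl9 at chr11:83578587-83578886 (minus strand), Trem2 at chr17:48346151-48346450 (plus strand) and Itgam at chr7:128062390-128062689 (plus strand).
Mcpt8: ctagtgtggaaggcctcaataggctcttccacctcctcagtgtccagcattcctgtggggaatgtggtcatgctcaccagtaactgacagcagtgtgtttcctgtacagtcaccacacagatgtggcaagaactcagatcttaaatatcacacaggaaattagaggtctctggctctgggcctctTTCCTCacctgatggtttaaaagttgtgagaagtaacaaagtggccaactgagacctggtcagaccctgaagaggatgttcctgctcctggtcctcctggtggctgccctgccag
Ccl6: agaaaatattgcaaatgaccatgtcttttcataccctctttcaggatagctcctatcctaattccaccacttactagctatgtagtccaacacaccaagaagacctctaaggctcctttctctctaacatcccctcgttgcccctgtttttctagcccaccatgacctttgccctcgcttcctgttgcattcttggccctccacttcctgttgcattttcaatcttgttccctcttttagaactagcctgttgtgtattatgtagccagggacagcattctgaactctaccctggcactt
Ccl9: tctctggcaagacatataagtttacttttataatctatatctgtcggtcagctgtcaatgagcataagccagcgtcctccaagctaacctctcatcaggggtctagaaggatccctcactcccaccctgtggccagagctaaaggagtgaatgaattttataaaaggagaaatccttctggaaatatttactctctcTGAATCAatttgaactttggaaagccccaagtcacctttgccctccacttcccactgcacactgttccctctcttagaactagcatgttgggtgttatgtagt
Trem2: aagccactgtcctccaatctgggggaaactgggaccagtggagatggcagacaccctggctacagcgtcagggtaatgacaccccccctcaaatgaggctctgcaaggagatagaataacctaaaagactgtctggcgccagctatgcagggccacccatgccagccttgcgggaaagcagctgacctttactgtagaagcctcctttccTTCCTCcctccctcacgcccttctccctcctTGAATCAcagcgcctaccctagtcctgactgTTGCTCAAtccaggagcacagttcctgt
Itgam: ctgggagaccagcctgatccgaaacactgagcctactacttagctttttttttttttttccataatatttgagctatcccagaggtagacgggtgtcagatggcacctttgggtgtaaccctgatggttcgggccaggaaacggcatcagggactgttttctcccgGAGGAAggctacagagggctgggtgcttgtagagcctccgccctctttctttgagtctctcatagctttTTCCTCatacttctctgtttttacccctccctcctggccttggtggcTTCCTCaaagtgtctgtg
Mcpt8 holds GAGGAA at base 186 of its window, and Ccl9 holds TGANTCA at base 198. Trem2 holds all 3 motifs, at bases 211, 273 and 242 for GAGGAA, TTGCNNAA and TGANTCA. Itgam holds GAGGAA 3 times, at bases 167, 236 and 283, and in Ccl6 none of these letters occur in the window. Of the 33 genes, 24 had 28 such windows: GAGGAA was in 15 of them (53.6%), beside 28.3% of all 32851 RefSeq windows. TTGCNNAA was in 5 windows (17.9%, beside 10.8% of all), and TGANTCA in 4 (14.3%, beside 7.81%). Some genes had several windows, and those of Fcgr3 overlap and share their matches. By gene, GAGGAA was in 14 of 24, TTGCNNAA in 4 and TGANTCA in 4. Like that of Ccl6, the windows of Lyz2, Cx3cr1, Fcer1g, Fcgr2b, Lcp1, Coro1a and Cyba held no match. Trem2 and Itgam thus do not stand for the other genes. A match describes these letters only and shows no binding. Csf1r, Itgb2, Cd52, Tyrobp, Cd14, Msr1, C1qa, Spi1 and Ctsh had no window.

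Among the scavenger and pattern recognition receptors, 1 of 3 genes passed. Cd14, the co-receptor for lipopolysaccharide, read 3.84, 4.91, 4.57 and 4.69 in WT and 6.56, 4.78, 6.19 and 5.96 in Cebpg-/-. Cebpg-/- replicates 1, 3 and 4 were above all WT arrays, and replicate 2 lay within the WT range. Cd14 rose by 1.37 ± 0.35 (SE, adjusted p = 0.0316), and the call was lost without WT replicate 1 or 3 or Cebpg-/- replicate 1, 3 or 4 (adjusted p 0.0703 to 0.0907) and with an intensity trend (0.0908). The macrophage mannose receptor gene Mrc1 and the scavenger receptor gene Msr1 had changes of 1.10 and 1.53 and did not pass (adjusted p = 0.0558 and 0.0792). Mrc1 read 1.97, 2.75, 2.74 and 2.38 in WT and 4.43, 2.60, 3.496 and 3.70 in Cebpg-/-. For Msr1 the values were 3.71, 4.92, 5.40 and 4.95 in WT and 7.27, 4.70, 6.65 and 6.48 in Cebpg-/-. Both genes were lowest on WT replicate 1, and Cebpg-/- replicate 2 lay within the WT range. A probe set of Msr1 other than its brightest did pass, with a change of 0.58, but it was dim, at 1.06 to 2.19 over the arrays.

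None of the 7 leukocyte surface genes passed the test, although their changes lay between 0.87 and 1.64. Csf1r, the receptor for Csf1 and Il34, read 5.38, 7.39, 7.25 and 7.31 in WT and 9.26, 6.51, 8.71 and 8.04 in Cebpg-/-. The high arrays were Cebpg-/- replicates 1, 3 and 4 and the low one WT replicate 1, while Cebpg-/- replicate 2 was below 3 WT arrays; the change of 1.30 ± 0.60 did not pass (adjusted p = 0.186). Ptprc, which encodes the leukocyte common antigen CD45, read 1.73, 3.79, 3.79 and 4.07 in WT and 5.93, 2.95, 5.20 and 4.73 in Cebpg-/-, a change of 1.36 (adjusted p = 0.202). The integrin chain genes Itgam and Itgb2, which form the complement receptor CR3, had the same high and low arrays. Itgam read 1.64, 2.24, 2.16 and 2.36 in WT and 4.01, 1.74, 3.17 and 3.18 in Cebpg-/-, a change of 0.93 (adjusted p = 0.148). For Itgb2 the values were 2.65, 4.38, 4.12 and 4.36 in WT and 6.54, 3.62, 5.94 and 5.69 in Cebpg-/-, with a change of 1.57 (adjusted p = 0.112). In both, Cebpg-/- replicate 2 lay above WT replicate 1 alone. Cx3cr1, the receptor for fractalkine, read 2.66, 3.26, 3.63 and 4.57 in WT and 5.93, 2.84, 4.95 and 3.89 in Cebpg-/-. It had the smallest change of this group, 0.87 (adjusted p = 0.376), and its WT replicate 4 value of 4.57 exceeded those of Cebpg-/- replicates 2 and 4. The tetraspanin gene Cd53 read 3.42, 4.75, 5.03 and 4.97 in WT and 7.23, 4.76, 6.40 and 6.23 in Cebpg-/-, a change of 1.61 (adjusted p = 0.0610). Cd52, the gene of a small surface glycoprotein, read 3.28, 4.44, 5.24 and 5.70 in WT and 7.87, 4.02, 7.07 and 6.25 in Cebpg-/-, a change of 1.64 (adjusted p = 0.191). Cebpg-/- replicate 1 was the highest array for both.

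Of the 5 Fc receptor and ITAM genes, Trem2 passed. Trem2, a receptor for lipids and lipoproteins on tissue macrophages, read 3.56, 4.57, 4.32 and 4.15 in WT and 6.14, 4.42, 5.69 and 5.22 in Cebpg-/-. Cebpg-/- replicates 1, 3 and 4 were above all WT arrays, and replicate 2 lay within the WT range. It rose by 1.22 ± 0.33 (adjusted p = 0.0405). That call was lost without WT replicate 1, 3 or 4 or Cebpg-/- replicate 1, 3 or 4 (adjusted p 0.0600 to 0.116). Other settings also ended it: adjusted p was 0.0530 after quantile normalization, 0.0580 with the mean of its probe sets and 0.104 with an intensity trend. Its other probe set had a change of -0.04. The ITAM adaptor genes Tyrobp and Fcer1g, whose proteins pass signals on from Trem2 and from Fc receptors, showed the same array pattern. Tyrobp read 4.24, 6.49, 6.27 and 6.37 in WT and 8.77, 6.06, 8.01 and 7.68 in Cebpg-/-, and its change of 1.79 ± 0.61 did not pass (adjusted p = 0.0827). Fcer1g read 3.88, 5.78, 5.75 and 5.97 in WT and 7.90, 5.08, 7.19 and 6.72 in Cebpg-/-, a change of 1.38 (adjusted p = 0.165). Both adaptors were lowest on WT replicate 1 and highest on Cebpg-/- replicate 1. For the low-affinity receptor gene Fcgr3, the values were 3.07, 4.84, 4.96 and 5.16 in WT and 7.13, 4.73, 6.38 and 6.29 in Cebpg-/-, a change of 1.62 (adjusted p = 0.0787). Its inhibitory counterpart Fcgr2b was the 1 gene of 33 with no change above 0: its brightest probe set read 4.94, 4.999, 5.20 and 4.83 in WT and 5.11, 4.64, 4.98 and 5.16 in Cebpg-/-, a change of -0.02 (adjusted p = 0.935) that was 0.0143 with array medians subtracted. The probe sets of Fcgr2b disagreed. Its 4 others had changes of 1.09, 0.64, 1.60 and 0.02, and none of them passed.

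The 3 C1q chains, which together form the recognition unit of the classical complement pathway and are made by tissue macrophages, did not pass. C1qa read 4.11, 6.37, 6.46 and 6.71 in WT and 8.49, 5.41, 7.86 and 7.44 in Cebpg-/-, a change of 1.39 (adjusted p = 0.223). C1qb read 3.79, 6.22, 6.40 and 6.67 in WT and 8.88, 5.70, 8.10 and 7.59 in Cebpg-/-, with a change of 1.80 (adjusted p = 0.141). C1qc read 2.82, 4.88, 5.15 and 5.56 in WT and 7.45, 4.499, 6.77 and 6.12 in Cebpg-/-, with a change of 1.61 (adjusted p = 0.154). In all 3, Cebpg-/- replicate 2 lay below WT replicates 2, 3 and 4.

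Lyz1 and Lyz2 encode the 2 lysozymes of the mouse and have near-identical sequences, so a probe set may read both and their separate values are uncertain. Lyz2 read 6.83, 9.64, 8.997 and 8.99 in WT and 11.58, 9.13, 10.98 and 10.75 in Cebpg-/-. WT replicate 1 was more than 2 units below the other WT arrays, and Cebpg-/- replicate 2 was within their range. Lyz1 read 7.71, 10.38, 9.97 and 9.75 in WT and 11.83, 9.83, 11.43 and 11.32 in Cebpg-/-. The changes of 1.99 for Lyz2 and 1.65 for Lyz1 did not pass (adjusted p = 0.0646 and 0.0887). The other two probe sets of Lyz1 had changes of 1.60 and -0.01, and neither passed.

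Of the 4 lysosomal genes, the cathepsin gene Ctsh rose and the others did not pass. Ctsh read 5.63, 5.31, 5.63 and 6.10 in WT and 6.84, 6.04, 6.74 and 6.34 in Cebpg-/-, so that Cebpg-/- replicate 2 lay just below WT replicate 4 and the rest were apart. It rose by 0.82 ± 0.20 (SE, adjusted p = 0.0239), and its second probe set was called as well. The call was lost without WT replicate 1, 2 or 3 or Cebpg-/- replicate 1 or 3 (adjusted p 0.0533 to 0.0718). The other cathepsin gene, Ctss, read 5.01, 7.39, 7.10 and 7.24 in WT and 9.23, 6.84, 8.56 and 8.35 in Cebpg-/-, with a change of 1.56 (adjusted p = 0.112). Cd68, which encodes a lysosomal membrane glycoprotein, read 3.41, 5.51, 5.05 and 4.85 in WT and 7.34, 5.03, 6.72 and 6.48 in Cebpg-/-, a change of 1.69 (adjusted p = 0.0608). Laptm5, a lysosomal membrane protein gene of blood cells, read 3.02, 5.37, 5.47 and 5.89 in WT and 7.89, 4.79, 7.17 and 6.61 in Cebpg-/-, a change of 1.68 (adjusted p = 0.158). In Ctss, Cd68 and Laptm5 alike, WT replicate 1 was the lowest array and Cebpg-/- replicates 1, 3 and 4 were above all WT arrays.

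The catalytic subunit of the phagocyte NADPH oxidase is encoded by Cybb and its partner by Cyba, which many other cells also express. Cybb read 2.34, 3.91, 3.56 and 3.996 in WT and 6.56, 3.24, 5.89 and 5.29 in Cebpg-/-, with a change of 1.80 that did not pass (adjusted p = 0.0916). Cyba read 8.45, 8.69, 8.62 and 8.61 in WT and 9.20, 8.74, 8.95 and 8.84 in Cebpg-/-, without overlap but with the smallest change of any called gene here. It rose by 0.34 ± 0.10 (SE, 1.26-fold, adjusted p = 0.0497). Its call was lost with any array left out except Cebpg-/- replicate 2 (adjusted p 0.0587 to 0.136), after quantile normalization (0.0657) and with the mean of probe sets (0.0528). None of the 3 actin regulators of leukocytes passed. Aif1, which encodes a calcium-binding protein that bundles actin, read 1.90, 2.43, 2.63 and 2.91 in WT and 5.03, 2.47, 3.75 and 3.37 in Cebpg-/-, a change of 1.19 (adjusted p = 0.111). The plastin gene Lcp1 read 2.85, 5.14, 5.33 and 5.77 in WT and 7.46, 4.52, 6.89 and 6.52 in Cebpg-/-, a change of 1.57 (adjusted p = 0.178). For the coronin gene Coro1a the values were 3.21, 4.57, 4.58 and 5.23 in WT and 6.99, 4.41, 6.40 and 5.55 in Cebpg-/-, a change of 1.44 (adjusted p = 0.114). The 3 genes shared their lowest array, WT replicate 1, and their highest, Cebpg-/- replicate 1. Spi1, the gene of PU.1, read 3.52, 4.15, 3.98 and 3.88 in WT and 4.80, 3.59, 4.47 and 4.33 in Cebpg-/-, a change of 0.42 (adjusted p = 0.259).

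**Figure D2:**
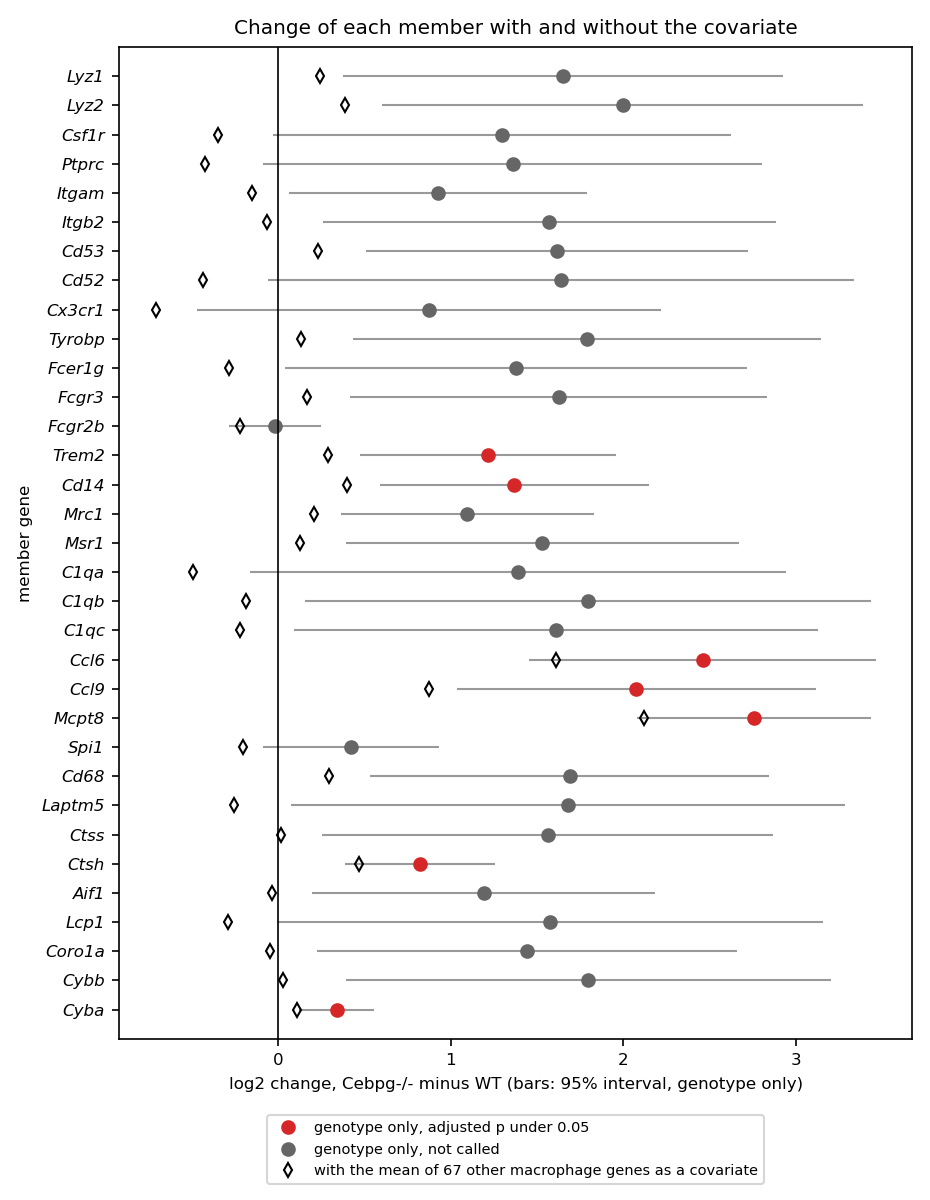
Each row is 1 of the 33 genes; the dot is the log2 change (Cebpg-/- minus WT) with its 95% interval from limma, red where the adjusted p was under 0.05, and the diamond is the change with the mean of 67 other macrophage genes as a covariate. Mcpt8 and Ccl6 have the largest changes, and 7 dots are red.

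The genes varied together across the arrays. With genotype means removed, the first component of the 33 genes held 93.2% of the sum of squares, beside 38.5% for all genes. The median residual SD of the 33 was 0.995, beside 0.108 for all genes, and 31 of the 33 were above the 90th percentile of all genes. In 29 genes the range among the 4 Cebpg-/- arrays exceeded the size of the change, and the median difference between Cebpg-/- replicates 1 and 2 was 2.48. As a description over the 8 arrays, the correlation of each gene's deviations with the mean of the other 32 was 0.884 or more for 29 genes, with Fcer1g (0.996), Csf1r and Ptprc the highest. Ctsh (0.590), Fcgr2b (0.615), Ccl6 (0.692) and Mcpt8 (0.747) were the lowest. These points share the arrays, so WT replicate 1 and Cebpg-/- replicate 2 enter each of them.

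Outside the 33, 9063 genes had a residual SD above the median of all genes. The 15 of them whose deviations followed the mean of the 33 best had correlations of 0.978 to 0.997 over the 8 arrays. They were Alox5ap, which activates leukotriene synthesis, the perforin-like gene Mpeg1, the macrophage surface receptor gene Adgre1, the complement receptor gene C3ar1, the chemokine gene Ccl5, the protease gene Adam8, and Adssl1, Ms4a6d, Ly86, Ms4a7, Cd84, AI467606, Arrb2, Cd72 and Plek. Of these, 10 belonged to a list of 67 other macrophage genes. Among the 15, 5 were called higher, beside 8.62% of all genes, including C3ar1 (2.09) and Adam8 (1.86). The 15 were picked for this correlation on the same 8 arrays, so their likeness to the 33 is no separate evidence.

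The number of calls depended on Cebpg-/- replicate 2. Without that array, 31 of the 33 genes were called higher, all but Cx3cr1 and Fcgr2b, where 9.29% of all genes were called higher. The median change was then 2.05, and Mcpt8 (8.16-fold), Ccl6 (6.26-fold), Lyz2 (2.49), Ccl9 (2.48) and Cybb (2.47, log2) had the largest changes. Leaving out any other single array gave 2 to 5 calls, given here with the share of all genes called higher. There were 3 without WT replicate 1 or 3 (4.29% and 5.55%) and 5 without WT replicate 2 or 4 (7.45% and 8.46%). There were 2 without Cebpg-/- replicate 1 or 3 (4.45% and 5.03%) and 3 without Cebpg-/- replicate 4 (5.78%). Only Mcpt8 and Ccl6 were called in all 8 of these fits. No gene of the 33 was called lower in any of them.

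**Figure D3:**
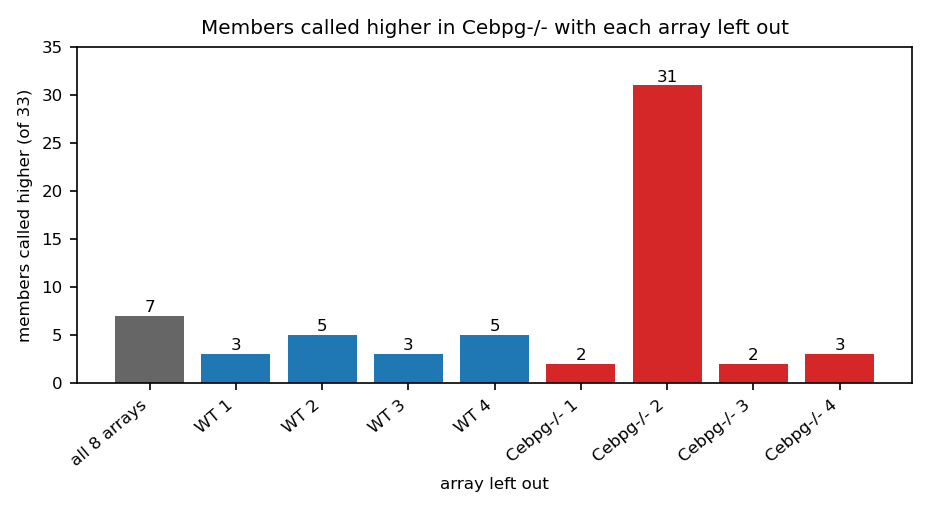
Bars give how many of the 33 genes were called higher (limma adjusted p under 0.05) with all 8 arrays and with each array left out, in blue for WT and red for Cebpg-/- arrays. The count is 7 with all arrays, 31 without Cebpg-/- replicate 2, and 2 to 5 without any of the others. Of all genes, 8.62%, 9.29% and 4.29% to 8.46% were called higher in these fits.

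A second list held 67 other macrophage genes, none of them among the 33. Their mean read 2.76, 3.34, 3.32 and 3.32 on the WT arrays and 4.55, 3.16, 4.04 and 3.85 on the Cebpg-/- arrays, with WT replicate 1 again the lowest and Cebpg-/- replicate 2 below the other three WT arrays. Of these 67, 9 were called higher and 1 lower, beside 8.62% and 3.99% of all genes, with a median change of 0.79. The immunoglobulin receptor gene Fcgr4 (0.81), the lectin gene Clec4d (2.48) and the receptor gene Pirb (0.36) rose, and the transcription factor gene Runx1 (-0.77) fell. Pirb was dim, at 2.09 to 2.76 over the arrays. Runx1 was lowest on Cebpg-/- replicate 1, where the mean of the list was highest. With that mean as a covariate, Mcpt8 alone stayed called, with a change of 2.12 (adjusted p = 0.0101), where 1.09% of all genes were called higher. Ccl6 had a change of 1.61 (adjusted p = 0.151), Ccl9 0.87 (0.202), Ctsh 0.47 (0.350), Cd14 0.40 (0.213), Trem2 0.29 (0.324) and Cyba 0.11 (0.589). Only 17 of the 33 changes stayed above 0, and the median was 0.0155, against 1.56 without the covariate. The covariate itself differs between the genotypes, so a change shared by all macrophage genes is largely removed with it. Calls fell among all genes too, from 8.62% to 1.09% called higher, so the loss of calls is not particular to the 33.

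**Figure D4:**
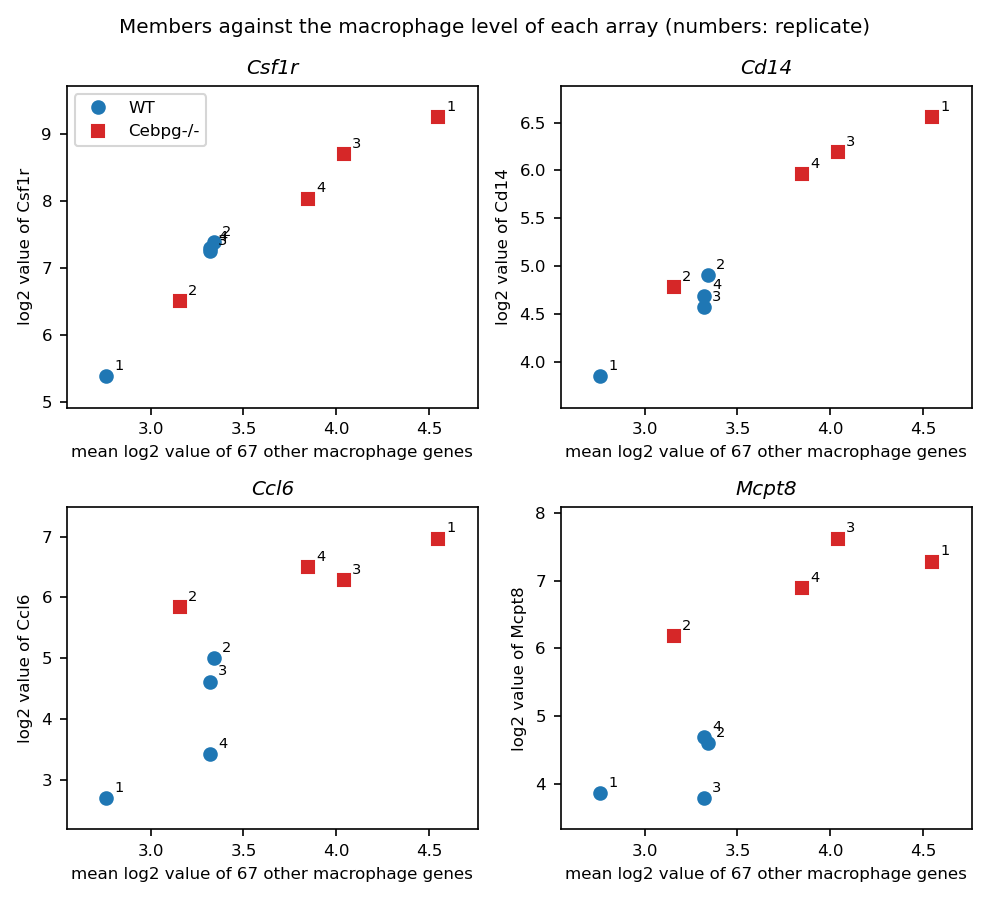
Each panel sets the log2 values of 1 gene (vertical) against the mean log2 value of the 67 other macrophage genes (horizontal), with 1 point for each of the 8 arrays, WT in blue and Cebpg-/- in red. Csf1r and Cd14 rise along the macrophage mean, whereas all Cebpg-/- points of Mcpt8 lie above all its WT points, including Cebpg-/- replicate 2.

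Factors that feed or attract macrophages were described from a list of 11 genes. Of these, 2 were called higher and 2 lower, beside 8.62% and 3.99% of all genes. Csf1 rose by 0.72 (adjusted p = 0.00594), whereas Il34 had a change of 0.18 and did not pass (adjusted p = 0.336). Ccl2, an attractant of monocytes, read 7.39, 7.75, 7.57 and 7.17 in WT and 8.31, 9.56, 8.16 and 9.44 in Cebpg-/-, and it rose by 1.40 (adjusted p = 0.0164). Cebpg-/- replicate 2 was the highest of all arrays for Ccl2. Whether these factors bear on the level of the 33 genes was not tested. The fractalkine gene Cx3cl1 fell by 0.51 and Cxcl12 fell by 0.53 (adjusted p = 0.0359 and 0.00678).

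Calls in the lists for other cell types stand beside 8.62% of all genes called higher and 3.99% called lower. Of 16 mast cell and basophil genes, the cells from which Mcpt8 is known, 1 rose and 1 fell (Gata2 0.32, Mcpt2 -0.21), the median change was -0.02, and 13 lay below the median probe set on all arrays. Of 15 neutrophil and myeloid precursor genes, 1 rose (Lcn2 0.30) and 13 were as dim. None of 14 lymphocyte genes was called in limma, with 2 at an unadjusted p under 0.05. Of 11 endothelial genes, Esam alone rose (0.42), and of 11 erythroid and megakaryocyte genes Gp1bb alone fell (-0.86). Of 18 fibroblast genes, 8 were called lower and 0 higher, including the collagen genes Col3a1 (-0.97) and Col1a2 (-0.44), the surface protease gene Fap (-0.88) and the receptor gene Pdgfrb (-0.64). The mean of the fibroblast genes read 9.24, 9.58, 9.27 and 9.37 on the Cebpg-/- arrays, with replicate 2 the highest of them. The part of the fibroblast genes in the results above was not tested.

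**Figure D5:**
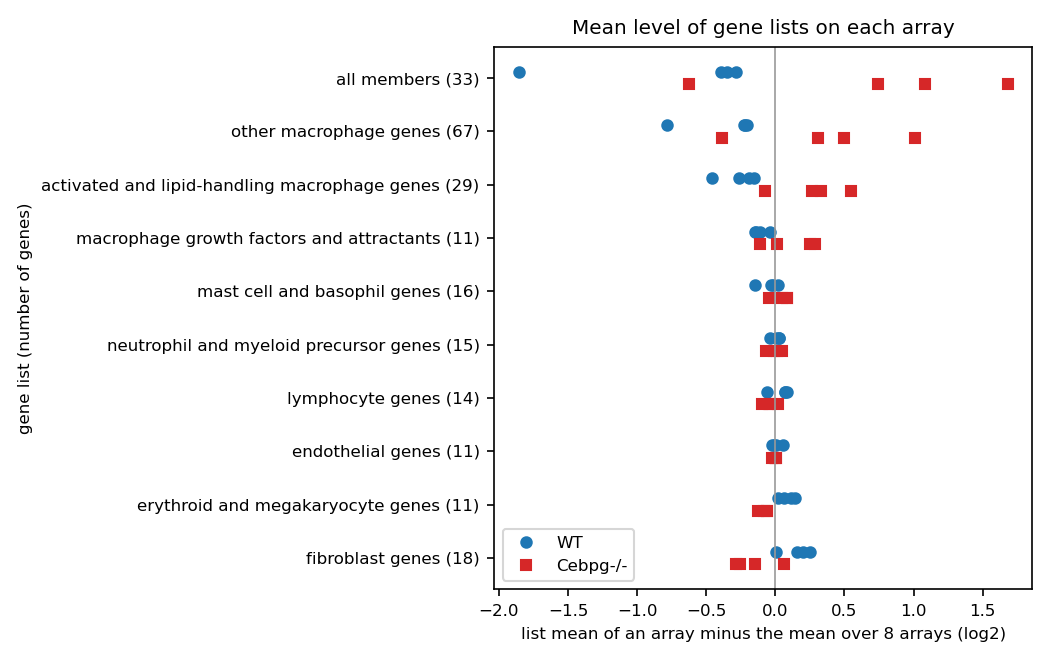
Points give the mean log2 value of each gene list on each array minus that list's mean over the 8 arrays, WT as blue circles and Cebpg-/- as red squares, with the number of genes in brackets. In the 33 genes (top) and the 67 other macrophage genes 1 WT array and 1 Cebpg-/- array lie to the left of their groups. The points of the other blood cell lists lie close to 0. The fibroblast list has a lower mean in Cebpg-/- (9.36) than in WT (9.67). Its highest array is replicate 2 in each genotype, and the cause of the lower mean was not tested.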

How the data were processed

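Total RNA of 8 cultures (4 WT, 4 Cebpg-/-, grouped by sample title) was labelled from 1 µg with an oligo(dT) primer, per the labels' protocols. The authors deposited log2 expression values, 1 for each probe set and array; RMA is the tool that the submitters' processing notes name, without its version or settings. Scanner files were not used here. RMA quantile-normalizes across arrays and compresses changes of dim probe sets. Probe sets were named through the platform annotation and symbols updated by Entrez number (RefSeq table of GRCm38.p6); 34945 named 1 gene, 932 several and 9160 none. After 64 control probe sets were removed, limma 3.58.1 in R 4.3.3 fitted genotype to 45037 probe sets (lmFit, eBayes), the brightest probe set stood for each of 18193 genes, and Benjamini-Hochberg adjustment covered all of them. Array data carry no read depth; the 4 arrays per group limit the precision. The labels do not say whether same-numbered cultures belong together, and the main fit did not pair them. Same-numbered arrays' deviations correlated at -0.359, 0.147, 0.0173 and 0.0453, and 1 of the 4 correlated best with its own number. Correlations of so few arrays cannot settle whether the cultures were paired. The fits were tested on simulated data. Alternatives were other normalizations, filters, variance models, the replicate block, a covariate and left-out arrays. The 33 genes, the lists and the naming rule (every member, up to 4 called genes per list and the 15 most alike genes) were chosen with earlier results of these data known. Il34, as the other ligand of Csf1r, and Srgn were named outside this rule. Promoter windows come from RefSeq.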

Additional observations from a re-analysis of the deposited data

Results flagged for a closer look

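WT replicate 1 was far below the other 3 WT arrays by Dixon's criterion for 10 of the 66 groups of values of single genes: it read 5.38 for Csf1r, 1.73 for Ptprc, 2.65 for Itgb2, 3.42 for Cd53 and 4.24 for Tyrobp. It read 3.88 for Fcer1g, 3.07 for Fcgr3, 4.11 for C1qa, 3.79 for C1qb and 5.01 for Ctss. The same array was the low one in the mean of all 33 genes (3.79), of the Fc receptors and ITAM adaptors (3.94), of the lysosomal genes (4.27) and of the 67 other macrophage genes (2.76). WT replicate 4 stood apart in the mean of the lymphocyte genes (2.35). These are 5 of 38 groups of list means; chance alone gives about 1 in 20 groups, and the genes share their arrays.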

How the results depend on the processing

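No gene of the 33 was called lower in any setting, and Mcpt8 was called in every setting run (adjusted p 0.000236 to 0.0164). The count called higher is given with the share of all genes called higher in brackets. It was 5 after quantile normalization (6.22%), 5 with the mean of probe sets (7.23%) and 4 with an intensity trend (9.22%). It was 16 with array weights (10.6%), 16 at a threshold of 0.1 (12.9%) and 1 with the covariate (1.09%). With the replicate block it was 3 (Ccl6, Mcpt8 and Ctsh, beside 5.38%). The count was 2 with both WT replicate 1 and Cebpg-/- replicate 1 left out (1.91%). With both WT replicate 1 and Cebpg-/- replicate 2 left out (chosen after seeing the data) it was 29 (5.43%). With 1 array left out it was 2 to 31 (4.29% to 9.29%). All genes called higher numbered 978 with the replicate block, 199 with the covariate, 347 and 987 with those pairs of arrays left out, 130 at a change of at least 2-fold, and 780 to 1690 with 1 array left out. Genes called lower numbered 102 with the covariate, 182 without WT replicate 1 and Cebpg-/- replicate 1, 1266 at a threshold of 0.1, 45 at 2-fold, and 395 to 969 with 1 array left out. The share of calls that were higher was 68.4%, but 56.7% after quantile normalization and 78.9% with array medians subtracted. The median change of the 33 was 0.0155 with the covariate and 0.674 without WT replicate 1 and Cebpg-/- replicate 1; its range with 1 array left out was 1.04 to 2.05. With the covariate the changes turned negative for Csf1r (-0.35), Ptprc (-0.43), Itgam (-0.15), Itgb2 (-0.0640), Cd52 (-0.44), Cx3cr1 (-0.71), Fcer1g (-0.29), C1qa (-0.497), C1qb (-0.19), C1qc (-0.22), Spi1 (-0.21), Laptm5 (-0.26), Aif1 (-0.0364), Lcp1 (-0.29) and Coro1a (-0.0470). Fcgr2b changed sign with array medians subtracted (0.0143), with the mean of its probe sets (0.67), without WT replicate 1 and Cebpg-/- replicate 2 (0.0742), and with 1 array left out (-0.0828 to 0.0905). Signal near background limits the dim genes, and the cause of these shifts was not tested.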

Other observations

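A list of 29 genes of activated and lipid-handling macrophages held 10 genes called higher and 0 lower, with a median change of 0.08. Of all genes, 8.62% were called higher and 3.99% lower. The fatty acid receptor gene Cd36 read 3.22, 4.45, 4.17 and 3.79 in WT and 7.45, 5.14, 6.88 and 6.70 in Cebpg-/- and rose by 2.63 (limma adjusted p = 0.00518). The macrophage elastase gene Mmp12 rose by 2.27 (adjusted p = 0.0128), the galectin gene Lgals3 by 1.73 (0.00472) and the lipoprotein lipase gene Lpl by 0.89 (0.0154). These 4 were named as the called genes of the list with the lowest p in limma. In all 4 every Cebpg-/- value lay above every WT value, which such a choice favours. The same was so for 9 of the 29 genes and for 12.8% of all genes. Fibroblasts and fat-forming cells can express Lgals3, Cd36 and Lpl too.

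Srgn, a proteoglycan gene of granules named after its values were seen, read 2.49, 4.68, 5.02 and 5.41 in WT and 7.28, 4.28, 6.90 and 6.41 in Cebpg-/- and did not pass (change 1.82, adjusted p = 0.131).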
